A study of Homo sapiens with 2 samples.

Results

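The genes described here encode membrane transporters of bicarbonate, protons, chloride, sulfate, phosphate, sodium, potassium and calcium. They were taken from the annotation of the array as every transcript cluster whose single gene symbol was SLC4A, SLC8A, SLC9A, SLC12A, SLC20A, SLC24A, SLC26A or SLC34A followed by a number, with antisense genes and pseudogenes left out. This gave 44 transcript clusters for 44 genes, 1 for each gene, among 22411 named genes and 67528 transcript clusters. 2 further transcript clusters carried a symbol of these families together with another gene and were not used.

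The cells were 769-P, an established human cell line of clear-cell renal cell carcinoma, a tumour the labels call non-metastatic. 1 array held total RNA of cells that had received the EGFP lentiviral vector without an insert, and 1 array held that of cells given the same vector with the full-length coding sequence of the forkhead transcription factor FOXK2. Both groups therefore carried the EGFP vector backbone, and whether the cells of a group were a pool or a clone is not given in the sources used here. Each group has 1 array, so the differences below carry no error, no test and no replicate check, and the number of arrays limits the precision.

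Kidney tubule cells use these families to reclaim what the glomerulus filters. In the proximal tubule, sodium-proton exchangers and the sodium phosphate cotransporters of the SLC34 family work in the brush border, and the sodium bicarbonate cotransporter SLC4A4 carries bicarbonate out through the basolateral side. Cation chloride cotransporters of the SLC12 family set cell volume in most cells and reabsorb salt in the thick ascending limb and the distal convoluted tubule, while the SLC8 and SLC24 families exchange sodium for calcium.

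All values are deposited log2 expression values, and a difference is the value in the FOXK2 array minus the value in the empty vector array. A gene was called higher or lower when its difference was at least 1 in size, which is 2-fold, and the mean of its values reached 5.24. This level limit is the median of the transcript clusters that have a single gene symbol. Whether a value lay above the array's background is not known. FOXK2 itself stood at 9.36 with empty vector and 13.82 with FOXK2, in the direction of the labels. Among the proximal tubule markers, 6 of 9 with a value were above the level limit. So were the 4 measured of 6 listed markers of clear-cell carcinoma. PAX8 is on both lists, and CA9 and NDUFA4L2 had no value used here. None of the 8 measured leukocyte, erythroid and endothelial markers was, and their highest value in either array was 4.57.

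15 of the 44 transporter genes (34.1%) lay above the level limit, against 50.3% of all named genes. These 15 were above it in both arrays. SLC4A11 was above it in the empty vector array alone, and 28 genes were below it in both arrays. Above the level limit, 1 transporter gene was at least 2-fold lower with FOXK2, where 3.05% of the 11263 genes above the limit were, and 0 were at least 2-fold higher, against 2.13%. At 1.5-fold, 2 were lower (SLC4A7 and SLC24A1), where 10.6% of all genes above the limit were, and 1 was higher (SLC34A1), against 6.09%. At 2-fold in either direction, 1 of the 15 was called (6.67%), against 5.19% of all genes above the limit. A share over 15 genes rests on few genes, so neither nearness to all genes nor a departure is read from it. The median difference over the 15 was -0.080, beside -0.050 over all genes above the limit. Their median size of difference, without regard to sign, was 0.26, and that of all genes was 0.24. 12 of the 15 (80.0%) differed by less than 0.5 on the log2 scale, against 78.7% of all genes. As a yardstick within the arrays, the differences of transcript clusters of the same gene disagreed by a median of 0.19 over 99 genes, and in 90% of these genes by up to 0.63. 3 transporter genes went past the latter value, SLC4A7, SLC24A1 and SLC34A1, and 14.3% of all genes above the limit did so. Such disagreement lies within the same 2 arrays, so it holds no variation between cultures or arrays and is no measure of error.

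**Figure D1:**
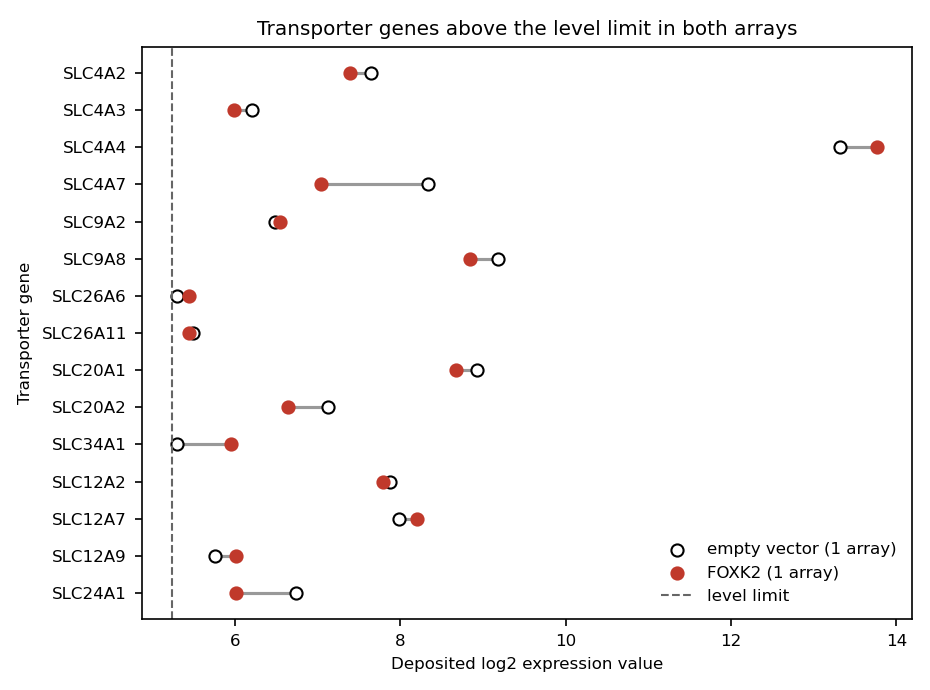
Deposited log2 value (horizontal axis) of the 15 transporter genes above the level limit, with an open circle for the empty vector array, a filled circle for the FOXK2 array and a dashed line at the level limit of 5.24. The widest gap is that of SLC4A7, from 8.33 to 7.04; distances along the axis are to be read within a gene, not between genes.

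The bicarbonate transporters of the SLC4 family held the 1 called gene. SLC4A7, the electroneutral sodium bicarbonate cotransporter NBCn1, which brings bicarbonate into the cell, had a log2 value of 8.33 with empty vector and 7.04 with FOXK2. It was 2.45-fold lower with FOXK2, a difference of -1.29, and ranked 156 from the lowest among the 11263 genes. The 51 nearest genes above the level limit on chromosome 3 had a median difference of 0.21, and SLC4A7 stood at -1.51 relative to that median. A median over 51 genes does not give the differences of single neighbours.

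The RefSeq table holds 2 start sites of SLC4A7, and the 250 bases before each are shown because this was the gene with the widest difference. They are given with the windows of SLC34A1, which had the largest positive difference among the 15, and of SLC4A3, the only transporter gene with a forkhead core in a window searched. All are RefSeq sequence of GRCh38.p14, 5′ to 3′ on the strand of the gene, in lower case. Capitals mark the forkhead core GTAAACA or its reverse complement TGTTTAC.
SLC4A7, first start, chr3:27484385-27484634, minus strand: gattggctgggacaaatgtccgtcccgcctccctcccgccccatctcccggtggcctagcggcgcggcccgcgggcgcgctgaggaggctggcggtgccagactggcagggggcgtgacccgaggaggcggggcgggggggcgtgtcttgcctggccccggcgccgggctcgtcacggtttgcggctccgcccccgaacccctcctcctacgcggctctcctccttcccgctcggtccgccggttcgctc
SLC4A7, second start, chr3:27456779-27457028, minus strand: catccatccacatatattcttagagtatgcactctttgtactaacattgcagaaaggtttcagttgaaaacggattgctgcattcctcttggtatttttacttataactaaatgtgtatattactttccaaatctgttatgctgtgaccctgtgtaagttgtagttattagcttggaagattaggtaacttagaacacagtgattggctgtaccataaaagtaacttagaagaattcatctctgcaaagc
SLC34A1, chr5:177384184-177384433, plus strand: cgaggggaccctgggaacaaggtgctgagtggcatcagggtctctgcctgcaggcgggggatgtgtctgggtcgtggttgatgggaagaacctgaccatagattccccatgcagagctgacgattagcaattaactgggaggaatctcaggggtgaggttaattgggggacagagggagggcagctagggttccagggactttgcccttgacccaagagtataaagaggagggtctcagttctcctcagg
SLC4A3, chr2:219630807-219631056, plus strand: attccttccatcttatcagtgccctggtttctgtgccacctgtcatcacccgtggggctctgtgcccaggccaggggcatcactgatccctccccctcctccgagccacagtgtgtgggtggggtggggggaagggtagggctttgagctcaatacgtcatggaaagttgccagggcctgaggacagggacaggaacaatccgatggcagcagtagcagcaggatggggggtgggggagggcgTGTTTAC

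The SLC4A7 windows differ in base composition. The first holds 76.0% G and C with 32 CG pairs, and the second 34.8% with 1 CG pair. The array gives 1 value for the gene, so the share of each start in that value is not known. The forkhead core was searched on both strands in 56 windows of 38 transporter genes that the table holds, and was found in 1 (1.79%), against 2.98% of all 35116 windows of this length. In SLC4A3 it occupies the last 7 bases before the start, and SLC4A3 had values of 6.21 and 5.99 in the empty vector and FOXK2 arrays. The binding letters of the AP-1 factors, TGACTCA or TGAGTCA, were in 3 transporter windows (5.36%, against 4.20% of all windows), of SLC4A4, SLC9A8 and SLC26A1. The core of the hypoxia response element, ACGTG or CACGT, was in 8 (14.3%, against 18.5%). A match is only a run of letters and says nothing of binding.

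The other SLC4 genes above the level limit differed less. SLC4A4, the electrogenic cotransporter NBCe1 of the proximal tubule, had 13.32 with empty vector and 13.77 with FOXK2, a difference of 0.44 or 1.36-fold. It had the highest deposited value of the 44 transporter genes in both arrays, though values of different genes depend on their probes and are not a ranking of abundance. SLC4A2, the chloride bicarbonate exchanger AE2 found in most cells, had 7.65 and 7.39, a difference of -0.26. SLC4A3, the exchanger AE3 of heart and brain, differed by -0.22. SLC4A4 thus had the opposite sign to SLC4A7, SLC4A2 and SLC4A3. In bulk RNA, fewer cells with a transcript and less of it per cell cannot be told apart.

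The remaining 6 SLC4 genes lay below the level limit and differed by -0.17 to 0.11. SLC4A1, the red cell exchanger band 3, and SLC4A8, a sodium-driven chloride bicarbonate exchanger of neurons, each held the same value in both arrays, 4.73 in the case of SLC4A1. SLC4A11, known from the corneal endothelium, had 5.28 and 5.11, on either side of the level limit.

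**Figure D2:**
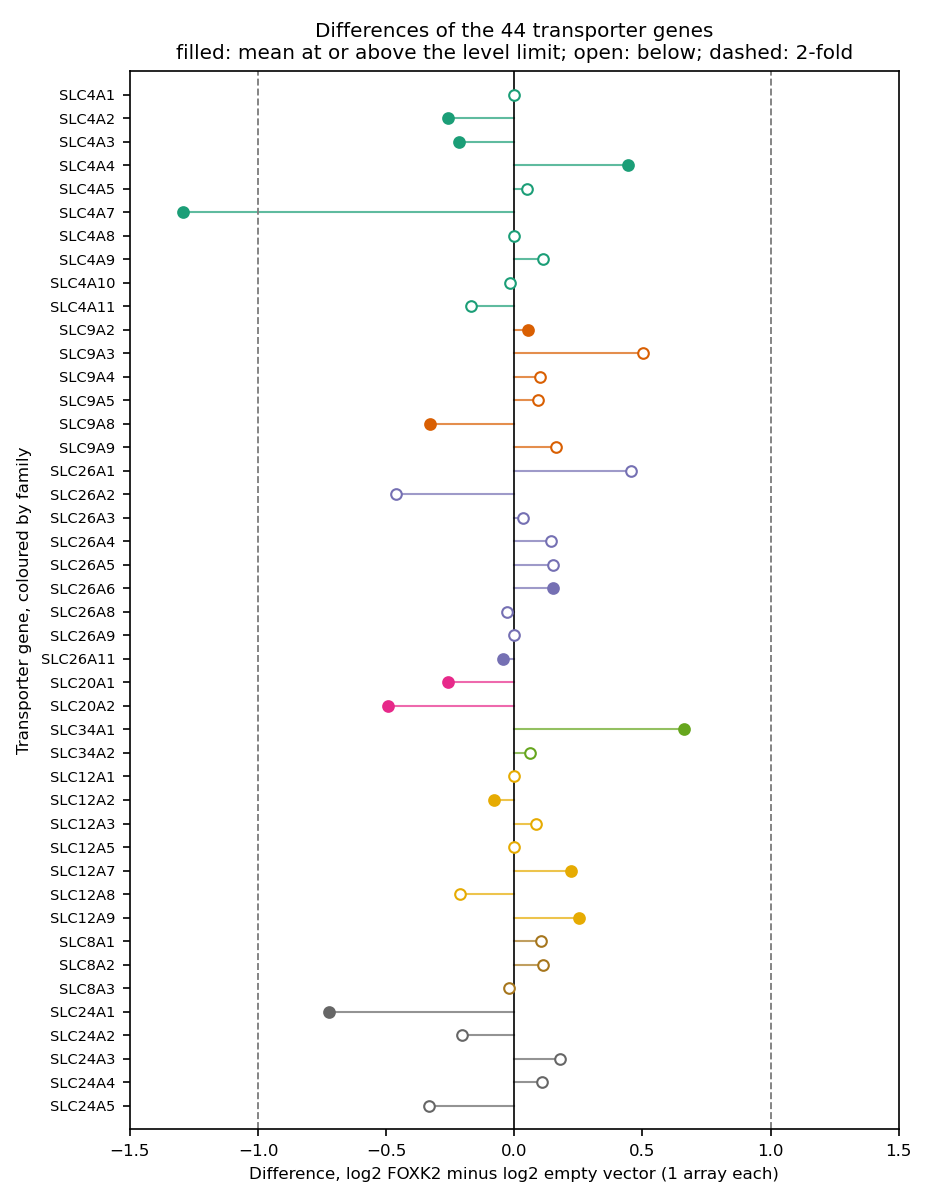
Difference between the FOXK2 and the empty vector array (horizontal axis, log2 scale) for each of the 44 transporter genes, coloured by family, filled where the mean lies at or above the level limit and open where it lies below, with dashed lines at 2-fold. SLC4A7 at -1.29 is the only point past a dashed line, and SLC34A1 at 0.66 is the furthest on the other side.

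Of the sodium-proton exchangers of the SLC9 family, 2 of 6 lay above the level limit. SLC9A8, the exchanger of the Golgi, had 9.18 with empty vector and 8.85 with FOXK2, a difference of -0.33. SLC9A2, an exchanger of epithelial surfaces, had 6.49 and 6.54, nearly the same value. SLC9A3, the brush border exchanger NHE3 through which the proximal tubule takes up most of its sodium and bicarbonate, had 4.49 and 4.99. Its difference of 0.50 was the largest positive one among the 29 transporter genes below the level limit, but its mean was only 4.74. SLC9A4 and SLC9A5, exchangers of stomach and brain, and the endosomal SLC9A9 were also below the limit, with differences of 0.10, 0.092 and 0.16.

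The SLC26 family exchanges chloride, bicarbonate, sulfate and oxalate, and 2 of its 9 genes were above the level limit. SLC26A6, the brush border exchanger of chloride for oxalate and formate, had 5.30 and 5.45, a difference of 0.15. SLC26A11 had 5.49 and 5.44, a difference of -0.043. Both stood close to the limit of 5.24. Below it, the sulfate transporters differed most and in opposite directions. SLC26A1, the basolateral sulfate and oxalate exchanger of the proximal tubule, had 4.70 and 5.16, a difference of 0.46. SLC26A2, the sulfate transporter whose loss causes skeletal dysplasias, had 5.22 and 4.75, a difference of -0.46. The other SLC26 genes, SLC26A3, SLC26A4 (pendrin), SLC26A5 (prestin of the outer hair cell), SLC26A8 and SLC26A9, differed by -0.029 to 0.15, and SLC26A9 held the same value in both arrays.

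The sodium phosphate cotransporters of both families differed in sign. SLC34A1 is the cotransporter NaPi-IIa that reclaims filtered phosphate in the proximal tubule. It had 5.29 with empty vector, close to the level limit of 5.24, and 5.96 with FOXK2. This difference of 0.66, or 1.58-fold, ranked 554 from the highest among the 11263 genes, and was 0.98 relative to its 51 neighbours on chromosome 5, whose median difference was -0.32. SLC34A2, the form of lung and intestine, lay below the level limit at 4.22 and 4.28. The transporters of the SLC20 family, which serve as phosphate supply in most cells and as retrovirus receptors, were lower with FOXK2. SLC20A1 had 8.93 and 8.67, a difference of -0.26. SLC20A2 had 7.13 and 6.64, a difference of -0.49 that was -0.24 relative to its neighbours on chromosome 8, where the median difference was -0.25. None of these reached 2-fold.

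Of the proximal tubule markers outside these families, 3 of the 6 above the level limit were at least 2-fold higher with FOXK2, CUBN, LRP2 and MME, against 2.13% of all genes above the limit. Differences over the 9 measured ranged from -0.16 for PAX8 to 3.43 for CUBN, and 8 were positive. ANPEP, with a difference of 0.90, stood at 1.15, past the 2-fold limit, relative to its neighbours on chromosome 15. The glucose and organic anion transporters SLC5A2, SLC22A6 and SLC22A8 lay below the level limit in both arrays, with differences of 0.026 to 0.092. The linear values of the 9 summed to 38776 with empty vector and 137928 with FOXK2, a sum set mainly by LRP2 and ANPEP. Whether this has a part in the differences of SLC34A1, SLC4A4 or SLC9A3 was not tested. Of the 4 measured clear-cell carcinoma markers, all above the limit, 1 was called higher, against 2.13% of all genes above the limit. It was NNMT, with 5.73 and 7.44, 3.28-fold higher with FOXK2. Differences of the 4 ran from -0.37 for VIM to 1.71 for NNMT, 2 of them positive and 2 negative.

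The SLC12 cotransporters of chloride with sodium or potassium differed little. SLC12A2, the sodium potassium chloride cotransporter NKCC1 that loads cells with chloride, had 7.88 and 7.80. SLC12A7, the potassium chloride cotransporter KCC4, which lets potassium and chloride out, had 7.99 and 8.21, a difference of 0.22. SLC12A9, a member with no settled transport function, had 5.75 and 6.01, a difference of 0.25. SLC12A1, the furosemide-sensitive cotransporter of the thick ascending limb, stood at 3.52 in both arrays, and SLC12A5, the neuronal KCC2, at 4.45 in both. SLC12A3, the thiazide-sensitive cotransporter of the distal convoluted tubule, had 4.48 and 4.56. SLC12A8 had 5.21 and 5.00, also below the level limit.

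None of the 3 SLC8 genes, the sodium calcium exchangers of heart, brain and muscle, lay above the level limit, and their values ranged from 4.16 to 4.49. Of the SLC24 genes, which move potassium along with calcium, only SLC24A1 did. SLC24A1, known as the exchanger of rod photoreceptors, had 6.74 with empty vector and 6.02 with FOXK2. It was 1.65-fold lower, a difference of -0.72 that was the lowest after SLC4A7. Its 51 neighbours on chromosome 15 had a median difference of -0.29, and relative to them it stood at -0.43. SLC24A5, the melanosomal exchanger, lies on the same chromosome and had 5.08 and 4.75. SLC24A2, SLC24A3 and SLC24A4 had values between 3.90 and 4.40.

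**Figure D3:**
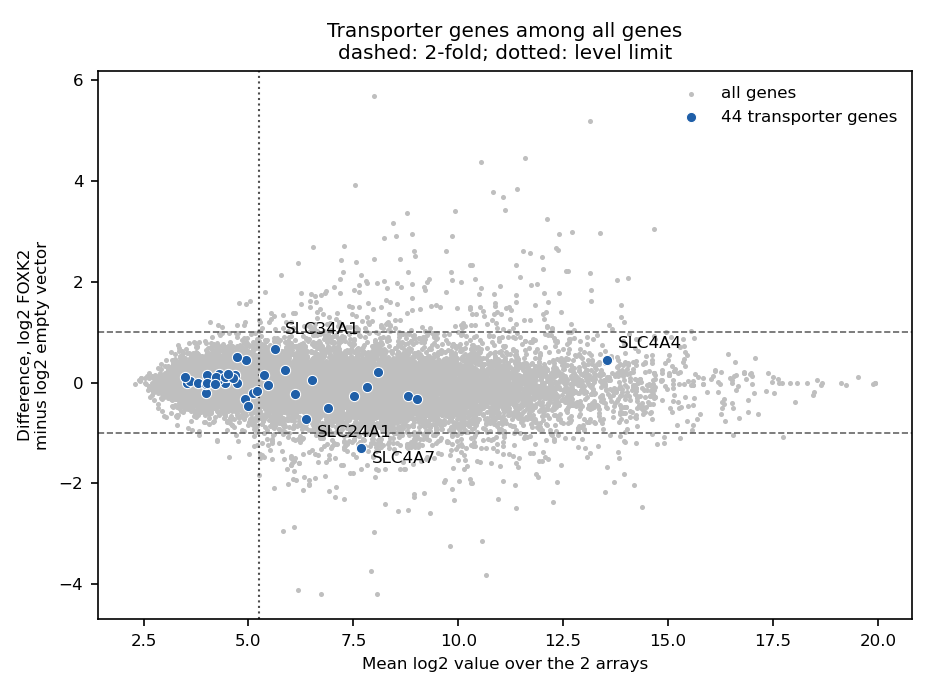
Mean log2 value over both arrays (horizontal axis) against the difference (vertical axis, log2 scale) for all 22411 named genes in grey and the 44 transporter genes in blue, with dashed lines at 2-fold and a dotted line at the level limit. Most transporter genes lie to the left of the dotted line and close to 0, and SLC4A7 lies below the lower dashed line.

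The regulators and partners of these transporters were described through 5 lists. The phosphate handling list had 16 measured genes, 7 of them above the level limit, with a median difference of 0.30 and 6 positive differences. Over all genes above the limit the median was -0.050 and 43.3% of differences were positive. None of the list was called, where 5.19% of all genes above the limit were. XPR1, the phosphate exporter, had 12.57 with empty vector and 13.23 with FOXK2, a difference of 0.67. PDZK1, a scaffold that holds SLC34A1 in the brush border, had 14.33 and 14.89, a difference of 0.56. ENPP1, which makes pyrophosphate, differed by 0.32 and NHERF2, another brush border scaffold, by 0.30. FGFR1, the receptor for the phosphate-regulating hormone FGF23, was the 1 gene above the limit with a negative difference, -0.28, which was 0.011 relative to its neighbours on chromosome 8. KL, the co-receptor klotho of that hormone, had values of 3.84 and 3.91, and PTH1R, the receptor of parathyroid hormone, 4.55 and 5.12, both below the limit.

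Of 27 measured bicarbonate and proton partners, 9 lay above the level limit, with a median difference of 0.088, and none was called. Over all genes above the limit the median was -0.050 and 5.19% were called. CHP1, the calcium-binding cofactor of the SLC9 exchangers, had 11.26 and 10.44, a difference of -0.83 that was -0.49 relative to its neighbours on chromosome 15. TESC, a related cofactor, had 6.75 and 6.12, a difference of -0.62. EZR, ezrin, which links brush border transporters to actin, had 14.92 and 15.63, a difference of 0.71. AHCYL2, a relative of the SLC4A4 activator IRBIT, differed by 0.42, and AHCYL1, which encodes IRBIT, by 0.059. The carbonic anhydrases CA2, in the cytosol, and CA12, on the cell surface, differed by 0.088 and 0.13. CA12 lies on chromosome 15 like CHP1, and relative to its neighbours it stood at 0.54. CHP2, another exchanger cofactor, lay below the level limit at 4.43 and 4.41. CHP1 and TESC thus had negative differences and EZR a positive one, all short of 2-fold.

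The WNK kinase cascade phosphorylates the SLC12 cotransporters and so sets chloride entry against chloride exit. Of its 18 measured list genes 12 lay above the level limit, with a median difference of -0.034, 1 called higher and 1 called lower. Over all genes above the limit, 2.13% were called higher and 3.05% lower. SGK1, the aldosterone-induced kinase that acts on sodium and chloride transport, had 9.61 with empty vector and 11.49 with FOXK2, 3.68-fold higher. LRRC8B, a subunit of the volume-regulated anion channel, had 8.08 and 6.44, 3.10-fold lower. It is a channel subunit and not a kinase, and the defining subunit LRRC8A had 6.96 and 6.89. NEDD4L, the ubiquitin ligase that SGK1 inhibits, had 10.31 and 9.35, a difference of -0.96, just short of the limit. It was past it, at -1.03, when the arrays were centred on their medians, and stood at -0.71 relative to its neighbours on chromosome 18. STK39, the kinase SPAK that phosphorylates SLC12A2 directly, differed by -0.61, while the related OXSR1 differed by 0.31. The transcript clusters of WNK1, 2 in number, disagreed, with differences of -0.83 and -0.14.

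Among 20 measured genes of calcium and magnesium handling, 9 lay above the level limit, with a median difference of -0.022, 1 called higher and 0 called lower. Over all genes above the limit the median was -0.050, and 2.13% were called higher and 3.05% lower. ATP2B1, the calcium pump of the plasma membrane, had 9.72 and 10.86 and was 2.20-fold higher with FOXK2. The related pump ATP2B4 had 7.66 and 7.09, a difference of -0.57. MCU, the mitochondrial calcium uniporter, had 10.01 and 9.16, a difference of -0.85 that was -0.60 relative to its neighbours on chromosome 10. CNNM2, linked to renal magnesium loss, differed by 0.23, or by 0.53 relative to its neighbours on the same chromosome. The 2 calcium pumps thus had opposite signs.

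Of 18 measured chloride channels and anion partners, 10 lay above the level limit, and 2 of them were called, both higher. The share called higher was 2.13% over all genes above the limit. CLIC4, a chloride intracellular channel family protein, had 12.36 and 13.98 and was 3.08-fold higher with FOXK2. CLCN5, the endosomal chloride proton exchanger of the proximal tubule that is mutated in Dent disease, had 8.36 and 9.83 and was 2.77-fold higher. CLCN3, a related endosomal exchanger, had 10.69 and 10.04, a difference of -0.65 that shrank to -0.15 relative to its neighbours on chromosome 4. PAPSS1, which activates sulfate, differed by -0.58. The median of the list was -0.047, beside -0.050 over all genes above the limit. Negative differences were 7 of 10, where 55.6% of all genes above the limit had them. The called genes were thus not typical of the list. CFTR, the cyclic AMP-regulated chloride channel, lay below the level limit.

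**Figure D4:**
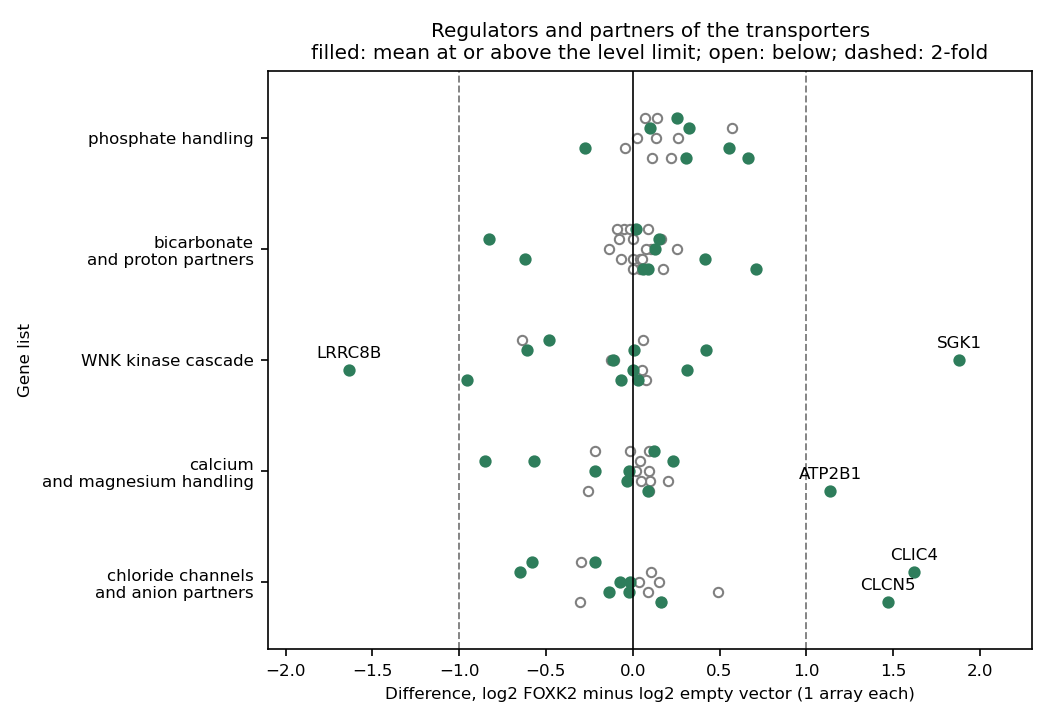
Difference between the FOXK2 and the empty vector array (horizontal axis, log2 scale) for the measured genes of the 5 partner lists (rows), filled where the mean lies at or above the level limit and open where it lies below, with dashed lines at 2-fold; the vertical spread within a row has no meaning. SGK1, CLIC4, CLCN5 and ATP2B1 lie past the upper line and LRRC8B past the lower one.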

How the data were processed

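Total RNA was extracted with Trizol and biotin-labelled using the WT PLUS kit, per the labels' protocols, and Affymetrix Expression Console was used, per the submitters' processing notes; which algorithm, version and build it ran is not given in the sources used here. Deposited values are read as log2 from their range, 2.13 to 19.93 in both arrays, since no label states the scale, and were used with no further normalization. Names came from the platform's annotation and were updated through RefSeq (GRCh38.p14); transcript clusters of a gene were averaged. Members and lists were chosen with earlier results of these data known. Every member is accounted for; of each partner list, the genes above the level limit with the widest differences, up to 4, were named, and any further gene was picked with its values in view. Alternatives were centring, removal of a loess trend (span 0.3), quantile normalization, subtraction of the median of 51 neighbours, other filters, the brightest transcript cluster, and other fold limits. Software was pandas 2.3.3 and numpy 2.4.6 under Python 3.11.15, with statsmodels 0.14.6; the calculations were tested on simulated data.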

Additional observations from a re-analysis of the deposited data

How the results depend on the processing

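No paired analysis was possible because each group has 1 array, and for the same reason no array could be left out. The counts of called transporter genes changed with the fold limit alone: at 1.5-fold, 1 was higher (SLC34A1; 6.09% of all genes above the level limit) and 2 were lower (SLC4A7 and SLC24A1; 10.6%), and at 3-fold 0 were lower (0.737% of all genes). The median over the transporter genes ranged from -0.15 when the arrays were centred to 0.016 with no filter on level, beside medians over all genes of -0.12 and 0.020 under the same settings. The 4 scalings were applied to 35 genes, the 15 transporter genes above the level limit and the 20 partner genes named by rule, and 138 of 140 values kept their sign; SLC9A2 stood at -0.015 after centring and SLC26A11 at 0.042 after subtraction of the neighbours. Of these 35 genes only NEDD4L changed its call. After subtraction of the neighbours, SLC34A1 stood at 0.98 and SLC4A7 at -1.51. Outside the 35, small differences of further genes also turned sign with that subtraction. Examples are FGFR1 at 0.011, LRRC8A at 0.19, AHCYL1 at -0.021 and CHP2 at 0.028. SLC12A8 at 0.019, SLC4A11 at 0.16, SLC26A8 at 0.12 and SLC34A2 at -0.17 did so too. The same held for some list genes and markers not given here by value, SLC5A2, PTGER3 and CLDN19 among them. Signal over background is not known, which limits the 29 transporter genes below the level limit most. It also limits those just above it, SLC34A1 in the empty vector array among them.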

Other observations

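Transcripts listed here as markers of other tubule segments, where SLC12 and SLC26 transporters also work, were not uniformly low. CLDN10, a claudin that forms sodium-selective and anion-selective pores, had a log2 value of 7.38 with empty vector and 9.84 with FOXK2, 5.49-fold higher. The array gives 1 value for CLDN10, so its forms cannot be told apart and the value cannot be assigned to a segment. CLDN16, the claudin of magnesium reabsorption in the thick ascending limb, had 10.47 and 11.22, a difference of 0.75 that was 1.06, past the 2-fold limit, relative to its neighbours on chromosome 3. The other 3 measured markers of that segment, CLDN19, KCNJ1 and PTGER3, lay below the level limit. AQP3, the basolateral water and glycerol channel of the collecting duct, had 7.30 and 8.32, 2.03-fold higher, and the other 6 measured collecting duct markers lay below the limit with differences of 0.070 to 0.29. Of the 5 distal convoluted tubule markers, EGF and CNNM2 lay above the limit, and none was called, where 5.19% of all genes above the limit were. Called higher were 1 of the 2 thick ascending limb markers above the limit and the 1 collecting duct marker above it. The share over all genes above the limit was 2.13%. These counts rest on too few genes for a contrast between segments to be read from them.

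Transcripts near the transporter families by name but left out of them showed small differences. SLC4A1AP, which encodes the adaptor kanadaptin, had 9.72 with empty vector and 9.64 with FOXK2. SLC9A3-AS1, antisense to SLC9A3, had 5.65 and 5.64, while SLC9A3 itself differed by 0.50. SLC9A9-AS1, SLC26A4-AS1 and SLC8A1-AS1 differed by -0.17, -0.15 and -0.042, and the pseudogenes SLC9A7P1 and SLC26A10P by 0.091 and 0.13, all below the level limit.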
